A study of Mus musculus with 2 samples.

Results

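The genes of Polycomb repressive complex 1 (PRC1), the enzyme that places ubiquitin on histone H2A, were followed in mouse embryonic stem cells (mESCs) after depletion of USP21, an enzyme that takes this ubiquitin off. The set comprised 10 genes picked by symbol, namely Ring1, Rnf2, Bmi1, Pcgf1, Pcgf2, Pcgf3, Pcgf5, Pcgf6, Rybp and Cbx7, out of 23889 symbols in each file, and each of the 10 was present. The rule uses gene names and no measured value, although the genes were chosen with earlier results of these data known. E14 cells, a feeder-free mESC line, were grown in serum and LIF, the cytokine that keeps mESCs undifferentiated. The labels write the mouse of origin as 19/Ola. One culture labelled as normal genotype received a control shRNA, and the other, labelled as USP21 knockdown, received an USP21 shRNA. Both were transfected and harvested 3 days later. The labels do not name the USP21 shRNA, and each group is 1 RNA-seq library with no replicates, so no difference has a check against the spread between cultures and no p-value is given. The libraries are called control and knockdown from here on, and where a pair of values is given the control comes first.

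PRC1 is built around a RING-type ubiquitin ligase, RING1 or RNF2 (also called RING1B), which is active when bound to one of the PCGF proteins. BMI1 (PCGF4) and PCGF2 (MEL18) form canonical PRC1, in which a CBX protein such as CBX7 reads the methylation that PRC2 writes on histone H3, and PHC proteins help to compact chromatin. RYBP or its paralog YAF2 takes the place of CBX in variant PRC1, which can also form on PCGF1, PCGF3, PCGF5 or PCGF6 and is the main source of ubiquitinated H2A in mESCs.

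The abundance of each transcript was given as FPKM, the fragments per kilobase of transcript for each 1000000 mapped. FPKM can therefore be set side by side between genes of a library. Differences are given as the log2 ratio of USP21 shRNA over control shRNA after adding 0.1 to each FPKM. Usp21 itself was at 26.2 and 3.49, which is 7.51-fold lower (log2 ratio -2.87). The sums of FPKM were 613617 and 543206, and from the steps between the lowest values the control was the deeper library, by about 1.23-fold. These steps, read with annotated transcript lengths, correspond to no fewer than about 270 fragments behind any value of the 10 genes (Pcgf1 in the knockdown). Among 10 mESC markers the FPKM ranged from 59.0 to 1849 in the control library. Of these, 2 were at least 1.5-fold lower in the knockdown, Nanog (467 and 258) and Tfcp2l1 (59.0 and 30.2). That compares with 6.46% of the 11927 genes with an FPKM of at least 1 in at least 1 library. The log2 ratio was below 0 for 9 of the 10 markers, with a median of -0.26, against 0.00 over the 11927 genes. Rescaling both libraries to equal sums of FPKM put the marker median at -0.09, and Sox2 and Klf4 were then also above 0. It raised the median of the 11927 genes by 0.17. Of 8 fibroblast markers 6 were under an FPKM of 1 in both libraries, among them Col1a1, Col3a1 and Lum. The exception with a sizeable level was Thy1 (17.3 and 5.29), and the list summed to 19.9 and 7.19. For comparison, 11927 of all 23889 symbols reached an FPKM of 1 in at least 1 library. The part of these marker differences in the values below was not tested, and in bulk RNA fewer cells of a kind cannot be told apart from less RNA per cell.

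All 10 PRC1 genes were transcribed in both libraries, at levels that spanned 22.8-fold in the control and 12.5-fold in the knockdown. Rnf2, Pcgf2 and Rybp were the abundant transcripts in both, and Bmi1 was the scarcest in both. Going from control shRNA to USP21 shRNA, Bmi1 was 1.81-fold higher and Rnf2 was 1.40-fold lower. In FPKM as deposited these were the largest differences in either direction. With a trend on transcript length removed, as described below, Pcgf3 (log2 ratio -0.57) lay below Rnf2 (-0.48). Only Bmi1 of the 10 was past a 1.5-fold difference. Of the 11927 genes with an FPKM of at least 1 in either library, 7.77% were that much higher and 6.46% lower.

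The promoters of Bmi1 and Rnf2 are shown because these genes mark both ends of the range in FPKM as deposited. They run from 250 bases before to 50 bases after the RefSeq start, with each CG dinucleotide in capitals. The first lies on chr2:18676768-18677067, plus strand, and the second on chr1:151500942-151501241, minus strand, both in GRCm38.p6. The expression files give no start site, so the values do not say which promoter was in use.

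Bmi1: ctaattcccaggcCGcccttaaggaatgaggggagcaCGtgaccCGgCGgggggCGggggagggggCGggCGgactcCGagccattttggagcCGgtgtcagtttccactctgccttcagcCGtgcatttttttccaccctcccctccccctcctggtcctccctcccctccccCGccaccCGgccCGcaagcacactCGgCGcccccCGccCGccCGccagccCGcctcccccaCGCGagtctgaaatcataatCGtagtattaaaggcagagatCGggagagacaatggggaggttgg

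Rnf2: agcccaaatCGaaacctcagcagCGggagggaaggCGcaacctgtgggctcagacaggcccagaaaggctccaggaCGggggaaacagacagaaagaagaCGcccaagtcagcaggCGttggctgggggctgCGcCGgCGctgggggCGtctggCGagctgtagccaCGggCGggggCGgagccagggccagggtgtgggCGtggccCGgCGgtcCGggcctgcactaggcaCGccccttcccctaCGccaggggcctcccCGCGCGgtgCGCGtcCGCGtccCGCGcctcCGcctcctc

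The Rnf2 promoter holds 30 CG dinucleotides and that of Bmi1 holds 23. As many or more were found in 11.7% and 21.5% of the 32851 promoters of the same length in RefSeq, whose median was 7. The RefSeq table holds 10 promoters for 8 of the PRC1 genes (Pcgf1 and Rybp are not in it). Of these 10 promoters, 8 held at least 22 CG dinucleotides, against 23.1% of all promoters. The exceptions were the promoter of Pcgf2, with 10, and 1 of the 3 promoters of Pcgf5, with 5. The limit of 22 equals the count at Pcgf6, the lowest of the 8, and the promoters compared were not restricted to transcribed genes. CG-rich promoters were therefore found both at the gene that was higher after knockdown and at the gene that was lower.

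**Figure D1:**
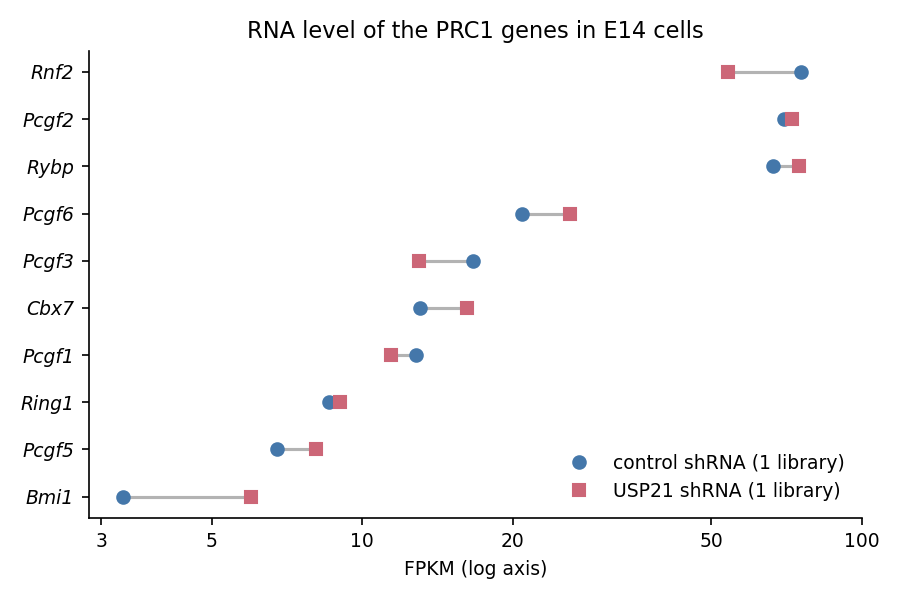
FPKM (log axis) of the 10 PRC1 genes in the control (circles) and knockdown (squares), 1 library each, ordered by the control level and joined by a line for each gene. Rnf2, Pcgf2 and Rybp lie above 50 in both libraries, and the longest line is that of Bmi1, from 3.31 to 5.99.

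Rnf2, the ligase that carries most of the activity in mESCs, was at 75.6 and 54.0 (log2 ratio -0.48). It was the highest of the 10 genes in the control and came after Rybp and Pcgf2 in the knockdown. Of all 11927 genes with an FPKM of at least 1 in at least 1 library, 9.25% had a log2 ratio as low or lower. Ring1, the second ligase, was at 8.56 and 9.03 (log2 ratio 0.08). Rnf2 was thus 8.83 times as abundant as Ring1 in the control and 5.98 times in the knockdown. The summed FPKM of the pair was 84.2 and 63.1, and the share of Ring1 in it was 10.2% and 14.3%. No word of 31 bases of any annotated Ring1 or Rnf2 transcript occurred in an annotated transcript of another gene. Transcripts were compared in their own direction only.

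The canonical PCGF subunits differed more from each other than between libraries. Pcgf2 was at 69.9 and 72.6, a log2 ratio of 0.05 that placed it in the middle of all genes (56.1% as low or lower). Bmi1 was at 3.31 and 5.99, with a log2 ratio of 0.84, and 96.3% of all genes had a ratio as low or lower. Pcgf2 was therefore 21.1 times as abundant as Bmi1 in the control and 12.1 times in the knockdown. The Bmi1 values carry 2 limits. Other annotated genes hold 28.2% of its 3936 words of 31 bases, with 1083 in Gm5946, a gene that has no row in the files, and how such fragments were assigned is not stated. The value of Bmi1 rests on roughly 380 and 560 fragments, fewer than the 4500 or more behind each value of Pcgf2 and Rnf2.

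The PCGF subunits of variant PRC1 went in both directions. Pcgf6, whose complex acts on germline genes, was the highest of them at 20.9 and 26.1 (log2 ratio 0.32), and Pcgf5 was at 6.74 and 8.09 (log2 ratio 0.26). Pcgf3, which shares most partners with Pcgf5, was at 16.7 and 13.0 (log2 ratio -0.36). Pcgf1, the subunit of the complex that KDM2B brings to CG-rich promoters, was at 12.8 and 11.4 (log2 ratio -0.17). Each of these 4 differences was smaller than 1.5-fold, as were those of 85.8% of the 11927 genes. With Pcgf3 lower and Pcgf5 higher, the pair summed to 23.4 and 21.1. As for Bmi1, part of Pcgf1 (23.1% of its words) occurs in another annotated gene, Gm8930, that is not in the files.

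Added together, the 6 PCGF genes had an FPKM of 130.4 and 137.2, which is a log2 ratio of 0.07. Pcgf2 held 53.7% and 52.9% of this sum. Pcgf6 followed with 16.0% and 19.0%, then Pcgf3 with 12.8% and 9.46%, and Pcgf1 with 9.85% and 8.33%. Pcgf5 held 5.17% and 5.90%, and Bmi1 2.54% and 4.37%. No share moved by more than 3.31 percentage points, and the order of the shares was the same in both libraries. Since the sum of the RING ligases was lower and that of the PCGF genes was not, PCGF transcripts outnumbered RING transcripts 1.55-fold in the control library and 2.18-fold in the other.

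Rybp, which stimulates the ligase in variant PRC1 and binds ubiquitinated H2A, was at 66.4 and 74.8 (log2 ratio 0.17). It was the highest of the 10 genes in the knockdown, just above Pcgf2. Its paralog Yaf2, which fills the same place in the complex, differed the other way, at 10.7 and 4.64 (log2 ratio -1.18), and 1.22% of all genes had a ratio as low or lower. Rybp was 6.22 times as abundant as Yaf2 in the control and 16.1 times in the knockdown, while their sum hardly differed (77.1 and 79.4). Words shared with other genes made up 10.8% of Rybp, nearly all with the pseudogene Rybp-ps, and none of Yaf2.

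Cbx7, the chromodomain subunit known to predominate in canonical PRC1 of mESCs, was at 13.0 and 16.2 (log2 ratio 0.31). On transcript level it did not stand above its paralogs in the control library, where Cbx6 was at 14.9 and Cbx2 at 12.6. In the knockdown Cbx6 was at 11.9 and Cbx2 at 12.6, and Cbx7 was the highest of the 4 CBX genes compared. The share of Cbx7 in the summed FPKM of Cbx2, Cbx6, Cbx7 and Cbx8 was 31.3% and 39.0%, with a sum of 41.6 and 41.4. Cbx8, a CBX gene linked to differentiated cells, was at 1.12 and 0.751.

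**Figure D2:**
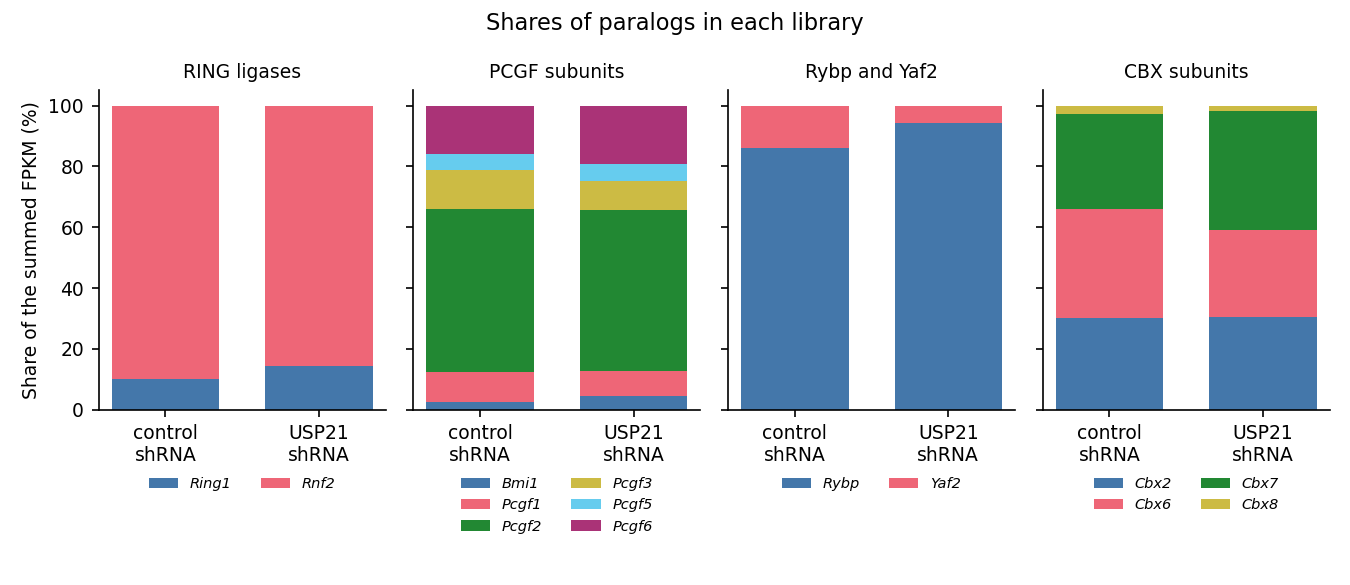
Share (%) of each paralog in the summed FPKM of its group, in the control and knockdown libraries (1 bar per library), for the RING ligases, the 6 PCGF genes, Rybp with Yaf2, and 4 CBX genes of canonical PRC1. Rnf2, Pcgf2 and Rybp hold over 50% of their groups in both libraries, and the widest shift is between Rybp (86.2% and 94.2%) and Yaf2 (13.8% and 5.85%).

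As a group the 10 genes did not stand out by size from other genes. At 1.5-fold or more, 1 of 10 was higher in the knockdown, where 7.77% of the 11927 genes were, and 0 of 10 were lower, where 6.46% were. At 2-fold or more there were 0 of 10 in either direction, against 2.30% of all genes higher and 2.03% lower. These counts come from a rule of size and not from a replicated test. The log2 ratio was above 0 for 7 genes and below 0 for 3. Its median was 0.12, against 0.00 over all 11927 genes, and its median absolute size was 0.28, against 0.23. Each of the 10 had an FPKM of at least 1 in both libraries, so none passed the filter through 1 library alone.

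The direction of a small difference depended on how the libraries were scaled. Rescaling both libraries to the same sum of FPKM, which gives TPM, raised the median of all genes by 0.17 on the log2 scale. It turned the split of all genes past 1.5-fold from 927 higher and 771 lower to 1658 higher and 465 lower. On that scale Pcgf1 was at 0.01 and the number of PRC1 genes above 0 was 8, and Bmi1 reached a log2 ratio of 1.01, just past 2-fold. Each of the 10 genes moved by about as much as the median did, which put Rnf2 at -0.31. The log2 ratio also followed transcript length, with a median of -0.21 in the shortest 10% of transcripts and 0.25 in the longest 10%. Removing this trend left Rnf2 at -0.48 and Bmi1 at 0.81, moved Pcgf3 to -0.57 and Pcgf5 to 0.09, and put Pcgf1 at 0.05, again on the other side of 0.

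**Figure D3:**
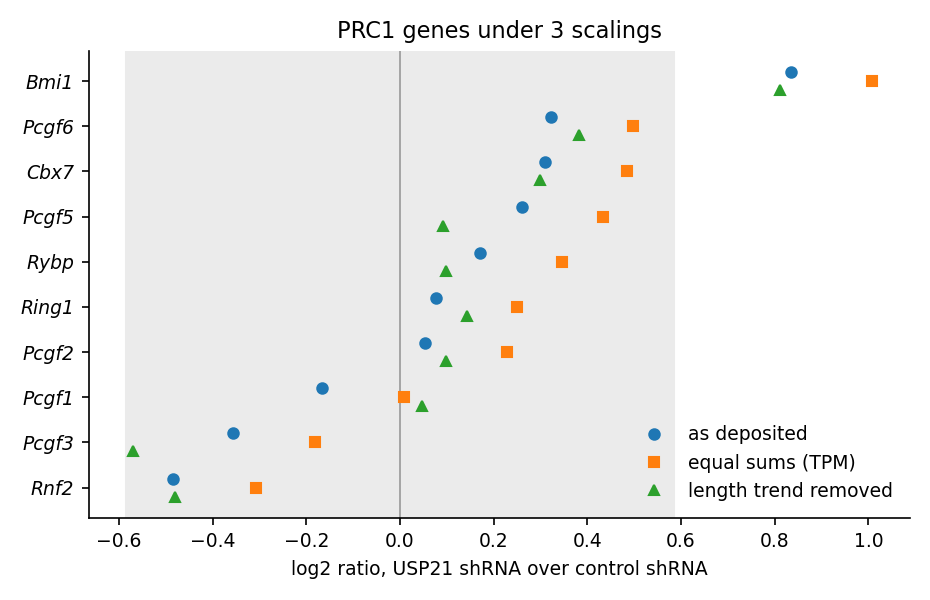
Log2 ratio (USP21 shRNA over control shRNA, 1 library each) of the 10 PRC1 genes with FPKM as deposited (circles), after rescaling to equal sums (squares) and with the trend on transcript length removed (triangles). The shaded band spans differences under 1.5-fold, Bmi1 lies outside it in all 3 scalings, and Pcgf1 changes sides of 0.

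The lists of related genes were read against the same shares of all 11927 genes, 7.77% at least 1.5-fold higher, 6.46% lower and 85.8% within 1.5-fold. Of 8 further canonical subunits of PRC1, 0 were past 1.5-fold in either direction, which is near these shares for a list of this size, and the median log2 ratio was 0.01. The highest was Phc1, a compaction subunit, at an FPKM of 148.2 and 175.0, above every one of the 10 genes. The lowest by control level was Cbx8, given above. Phc3, at 2.17 and 3.18, had a log2 ratio of 0.53, and 0.23 without the length trend. After rescaling to equal sums it was 0.70, past 1.5-fold, where 1658 of the 11927 genes were higher. As deposited, Cbx8 lay nearly as far on the other side, at -0.52, but it passed the filter through the control alone. Its log2 ratio was -0.37 after rescaling to equal sums, -0.55 without the length trend and -0.28 with a pseudocount of 1.

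Of 22 further subunits of variant PRC1, 20 were within 1.5-fold, 1 was higher and 1 was lower, against the 7.77% and 6.46% of all genes, and the median log2 ratio was -0.06. The lower one was Yaf2. The higher one was Mga, the DNA-binding scaffold of the PCGF6 complex, at 11.2 and 17.4 (log2 ratio 0.63, and 0.27 without the length trend). After rescaling to equal sums, where 1658 of the 11927 genes were higher, so were 2 of the 22, Mga and E2f6, a DNA-binding partner in the same complex (12.1 and 18.1). As deposited, E2f6 lay on the limit. Its log2 ratio with the added 0.1 was 0.581, against 0.585 for 1.5-fold, and its plain FPKM ratio was 1.5002. Skp1a, a partner of KDM2B, was the highest by level at 269 and 202, and Auts2, a partner of PCGF3 and PCGF5, was the lowest at 1.66 and 1.84.

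Among the enzymes that remove ubiquitin from H2A and their cofactors, 14 of 15 listed genes had an FPKM of at least 1 in at least 1 library. Usp21, the shRNA target, was past 1.5-fold, and the other 13 were within it, as were 85.8% of all genes. Of the 15 genes the highest by level in both libraries was Usp22, at 67.9 and 101.5. Its log2 ratio of 0.58 lay just under the 1.5-fold limit. After rescaling to equal sums Usp22 (0.76) and Usp27x (0.60) were past it, where 1658 of the 11927 genes were higher.

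PRC2, which writes the H3 methylation that CBX7 reads, had 13 listed subunits and cofactors. Of these, 2 were at least 1.5-fold higher, against 7.77% of all genes, namely Aebp2 (52.8 and 103.0) and Phf19 (5.24 and 9.30). Epop, listed under its older symbol E130012A19Rik, was lower (166.8 and 108.1, log2 ratio -0.62, and -0.45 after rescaling to equal sums, which is within 1.5-fold), where 6.46% of all genes were lower. Equal sums also put Jarid2 (log2 ratio 0.68) past 1.5-fold, for 3 higher and 0 lower. On that scale 1658 of the 11927 genes were higher and 465 lower. The median log2 ratio of this list was 0.26. Whether the PRC1 and PRC2 genes differ from each other was not tested.

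**Figure D4:**
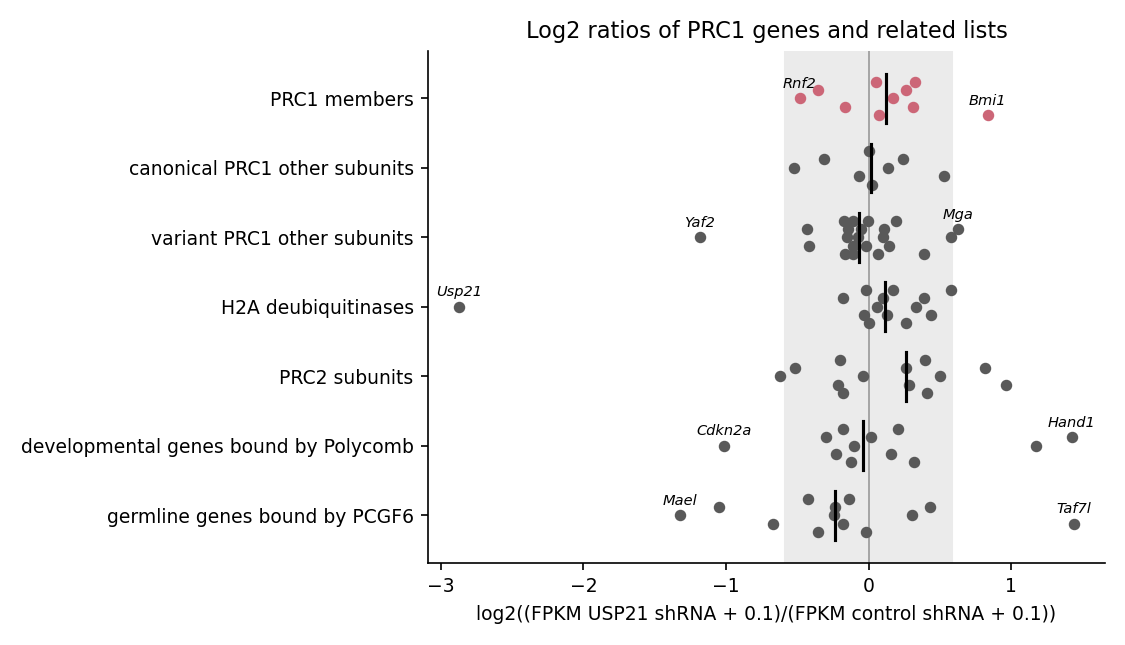
Log2 ratio (USP21 shRNA over control shRNA, 1 library each) of each gene with an FPKM of at least 1 in at least 1 library, for the 10 PRC1 genes (first line) and 6 related lists, with a vertical bar at each list's median and a shaded band for differences under 1.5-fold. Of the PRC1 genes Bmi1 alone lies outside the band, and Usp21 lies furthest to the left.

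Genes known as targets of PRC1 were examined for their own RNA level, since no binding or histone mark is in the files. An FPKM of 1 was reached in at least 1 library by 11927 of all 23889 symbols. Of 43 developmental genes that Polycomb binds in mESCs, 31 were under an FPKM of 1 in both libraries, and the median of the 43 was 0.0931 and 0.0907. An FPKM under 0.1 was found for 22 of them in each library. Among the 12 that reached an FPKM of 1 in at least 1 library, 2 were higher and 1 was lower by at least 1.5-fold, against 7.77% and 6.46% of all genes, with a median log2 ratio of -0.04. The higher ones were Hand1, a mesoderm and trophoblast regulator (0.403 and 1.25), and Gata3, a trophoblast regulator (0.547 and 1.36), and both passed the filter through the knockdown alone. Cdkn2a, the cell cycle inhibitor locus known as a BMI1 target, was lower (11.8 and 5.80, log2 ratio -1.02).

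The germline genes that PCGF6 is known to bind were at higher levels, and 13 of 15 reached an FPKM of 1 in at least 1 library. Of these, 1 was at least 1.5-fold higher and 3 were lower, against 7.77% and 6.46% of all genes, and the median log2 ratio was -0.23. Taf7l, a germ cell form of a general transcription factor subunit, was at 2.77 and 7.69 (log2 ratio 1.44). Mael, a factor of the piRNA pathway, was at 38.9 and 15.5 (log2 ratio -1.32), Hormad1, a protein of meiotic chromosomes, at 7.47 and 3.56, and Stk31 at 4.60 and 2.86. After rescaling to equal sums Stk31 was within 1.5-fold, at -0.50, and Sycp3 was past it, at 0.61. This made 2 genes higher and 2 lower, where 1658 of the 11927 genes were higher and 465 lower, and the median was -0.06. Pcgf6 itself was at 20.9 and 26.1.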

How the data were processed

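RNA of 1 control shRNA library and 1 USP21 shRNA library of E14 cells was analysed. The authors deposited FPKM values, 1 per gene symbol. The submitters' processing notes name CASAVA 1.8.2, TopHat2 2.0.14, Cufflinks 2.2.1 and the build mm9, without roles. The annotation and the assignment of fragments that match several genes are not given in the sources used here.

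A pseudocount of 0.1 was added to each FPKM, the log2 ratio of knockdown over control was taken for 23889 symbols, and the 11927 that reached an FPKM of 1 in either library were counted at 1.5-fold and 2-fold. With 1 library per group no significance test was run. The 10 genes and the related lists were chosen with earlier results of these data known, and membership of the target lists rests on general knowledge. Named genes are the 10 genes, Usp21 and, from each list, up to 3 genes past 1.5-fold in each direction or the one furthest from 0, with the highest and lowest by level for PRC1 subunits. One listed PRC1 subunit is not reported here. Other CBX genes, E2f6, Usp22, Usp27x, Jarid2 and Sycp3 were added after their values were seen.

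Transcript lengths (longest coding transcript, found for 95.4% of the counted genes) and 31-base words came from GENCODE M21 (GRCm38), and promoters from RefSeq. Words were compared between annotated transcripts without their reverse complements. The build differs from mm9, so no coordinates were joined to the values. Alternatives were pseudocounts of 1 and 0.01, equal sums (TPM), a median of 0, a lowess correction (span 0.3) for length, no filter, and FPKM of at least 5. The depth estimates were added after the values were seen. The software was statsmodels 0.14.6, scipy 1.17.1, matplotlib 3.10.9 and pandas 2.3.3 under Python 3.11.15.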

Additional observations from a re-analysis of the deposited data

How the results depend on the processing

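With 1 library per group, no replicate could be left out. No paired analysis was possible because each group holds 1 library. Bmi1 was the 1 gene of the 10 past 1.5-fold under the 6 alternatives other than the filter at an FPKM of 5. Of these, dropping the filter could change none of the 10, which all pass it, and a median of 0 subtracted only 0.003 from each log2 ratio. Bmi1 was also past 1.5-fold under the filter at an FPKM of 5. It passes that filter only through the knockdown (5.99, against 3.31 in the control), so that setting says nothing about it. Rescaling to equal sums (TPM) put 1 gene (Bmi1) past 2-fold higher, where 449 of the 11927 genes were. It raised the median log2 ratio of the 10 genes to 0.30, by construction, since it adds nearly the same amount to each gene. Under the other alternatives this median stayed between 0.098 (length trend removed) and 0.12. With no filter and with the filter at an FPKM of 5 it was unchanged by construction, since all 10 genes stay in with the same ratios. Pcgf1 changed sign under equal sums and without the length trend. Counted at a shift of over 0.1, pseudocount 1 moved 1 of the 10 genes, the length correction 3 and pseudocount 0.01 and the median setting 0. With the PCGF sum taken over Bmi1, Pcgf2 and Pcgf1 alone, the share of Pcgf2 was 81.2% and 80.6%. The files hold no counts, so no counting interval was computed.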
